A study of Mus musculus with 16 samples.

Results

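Lymph nodes that lie far from an inoculum of dead tumor cells were compared with nodes of naive mice. The comparison sets the 3 libraries made from contralateral, non-draining inguinal lymph nodes (ndLN) of mice given fixed MC38 cells against the 4 libraries made from naive mice. The libraries were chosen by their titles, 5A to 5C for the fixed-cell ndLN and 1A to 1D for the naive nodes, so 7 of the 16 libraries of the series enter. A barcode was kept as a cell when it held 200 to 6000 genes and at most 30% mitochondrial UMIs (unique molecular identifiers, 1 per captured RNA molecule). The fixed ndLN libraries A, B and C gave 1785, 1236 and 1065 cells, together 4086. Naive libraries A to D gave 4806, 3238, 3356 and 3177 cells, together 14577. The comparison therefore held 18663 of the 50386 kept cells of the series.

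All mice were C57Bl/6, 8 weeks old and sex-matched, and MC38 is a mouse colon carcinoma line of the same strain. For the fixed-cell group, 500000 MC38 cells fixed in 4% paraformaldehyde were placed under the skin of the lower right flank of 3 mice, and nodes were taken on day 12. The draining node (dLN) of the same 3 mice was sequenced too, as were the dLN and ndLN of 3 mice with live MC38 tumors. Naive mice received no cells, and which of their nodes was taken is not stated. Every node was digested with enzymes and enriched for podoplanin-positive cells before droplet sequencing, so the shares below describe what passed that selection and not the whole node. Whether each naive library is 1 mouse is not stated either, so p-values below measure the spread between libraries. The inoculum was 1 dose of 1 cell line and no library is labelled as carrier alone, so the injection and the dead cells cannot be told apart.

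Fibroblastic reticular cells (FRCs) build the scaffold of a lymph node and lymphatic endothelial cells (LECs) line its sinuses. T-zone reticular cells (TRCs) guide T cells with the chemokines CCL19 and CCL21, marginal reticular cells (MRCs) lie under the subcapsular sinus beside B cell follicles, medullary reticular cells (MedRCs) surround the medullary cords, and perivascular reticular cells (PRCs) surround vessels. Ceiling LECs (cLECs) form the outer wall of the subcapsular sinus and floor LECs (fLECs) its inner wall, while medullary and cortical LECs (MedLECs, CorLECs) line the deeper sinuses. Classes were named from marker genes, as cells like these types, and their names below stand for such cells.

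The libraries were not alike in quality. Between 29.6% and 31.3% of barcodes in the fixed ndLN libraries were removed for mitochondrial UMIs, against 14.3% to 18.6% in the naive libraries. Kept cells held a median of 3970 to 4365 UMIs in fixed ndLN libraries and 3421 to 4810 in naive ones, so depth per cell overlapped, while the median mitochondrial share was 6.21% to 7.17% against 4.70% to 5.42%. In total the fixed ndLN libraries held 7486725 to 13613641 UMIs and the naive ones 24094935 to 32918088. Naive library A stood apart from B to D, with more cells and with blood endothelial cells at 4.66% of cells against 1.51% to 1.79%. The labels also carry 2 series of library codes, whose meaning is not stated. Naive A and all fixed ndLN libraries share 1 code series and naive B to D the other. Gene calls against naive were therefore also computed with the code series as a term and with naive A as the only control. Shares were computed with the code series as a term but not with naive A alone. Neither setting was run for activated stromal cells, differences between classes, fits within clusters or sums over whole lineages. Nor was either run for the other inoculated groups or for counts and medians of gene lists. Xist stood between 2028 and 2482 CPM (counts-per-million UMIs) in all 7 libraries, and 4 Y-linked genes gave 20 UMIs over all 7. Libraries shared at most 0.32% of their barcodes, and doublets, of which 3.11% of cells were marked, stayed in.

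The makeup of the selected cells differed. LECs took a larger share in the fixed ndLN, as did S100a9-led myeloid cells and plasma cells, while fibroblastic cells, Ccr7-led dendritic cells, macrophages, T cells and pericytes took smaller shares. Of 22 shares tested with edgeR, 14 passed the adjusted p of 0.05 (63.6%), and 11 did not overlap between the groups (50%). LECs made up 35%, 35.8% and 33.1% of kept cells in fixed ndLN libraries A, B and C and 24.8%, 19.4%, 23.6% and 18.9% in naive libraries A to D. Every fixed ndLN library lay above every naive one (log2 ratio 0.68, SE 0.09, adjusted p = 1.86e-05). Fibroblastic cells moved the other way, at 18.3%, 19.9% and 18.6% against 22.9%, 27%, 27.9% and 26.4%. Their log2 ratio was -0.46 (SE 0.08, adjusted p = 0.000147), again with no overlap.

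A myeloid class, chosen by S100a8, S100a9, Retnlg and Csf3r, genes that mark neutrophils, stood at 9.19%, 7.04% and 6.95% of cells in the fixed ndLN and at 4.08%, 4.14%, 4.17% and 4.56% in naive nodes (adjusted p = 1.86e-05). It joins cluster 11, led by S100a9, S100a8, Camp and Ngp with the monocyte gene Ly6c2, and cluster 14, led by Fgr and Csf3r with the monocyte genes Ccr2, Adgre4 and Clec4a3. Cluster 11 held 172 fixed ndLN and 300 naive cells and cluster 14 held 153 and 315. The 5 macrophage and monocyte markers summed to 8270 to 11500 CPM in this class in the fixed ndLN and 9090 to 11300 CPM in naive nodes, so neutrophils and monocytes are not separated in it. Antibody-secreting plasma cells also took a larger share, at 1.4%, 1.29% and 1.6% in the fixed ndLN against 0.333%, 0.618%, 0.566% and 0.567% in naive nodes (adjusted p = 0.00644). Ccr7-led dendritic cells, the migratory kind that carries antigen to the node, fell from 11.7%, 12.1%, 10.2% and 12.3% in naive nodes to 7.68%, 7.52% and 7.7% (adjusted p = 1.86e-05). None of these 3 classes overlapped between the groups. Macrophages and monocytes were at 3.24% to 3.85% against 4.74% to 5.07% (adjusted p = 0.00109), and T cells at 2.25% to 2.58% against 3.02% to 3.71% (adjusted p = 0.00644, but 0.104 with log-normalized clustering). The T cell class is cluster 18, led by Cxcr6, Cd3g and Trbc2, with 100 fixed ndLN and 487 naive cells. Its marker score was 1 for T cells and 0.986 for natural killer cells, so natural killer cells are not separated from T cells in this class. A cluster led by Lef1, Ms4a4b and Lck, genes of T cells, with 129 and 993 cells, was too shallow to be named and lies outside it. Pericytes, the contractile cells around vessels, were at 0.563% to 1.06% against 1.42% to 3.14% (adjusted p = 0.00644), with naive A the highest. Other dendritic cells, not led by Ccr7, passed in the opposite direction to the Ccr7-led ones, with overlapping libraries. They were at 6.47% to 8.26% in the fixed ndLN against 5.78% to 6.52% in naive nodes (log2 ratio 0.245, adjusted p = 0.0331). B cells, mast cells and blood endothelial cells did not pass the test. With the code series as a term B cells did (log2 ratio 0.27, adjusted p = 0.0463), as did blood endothelial cells (-1.55, adjusted p = 7.75e-05). With at most 10% mitochondrial UMIs both passed (adjusted p = 0.0123 and 0.0261), and without naive library B blood endothelial cells passed (adjusted p = 0.0351).

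**Figure D1:**
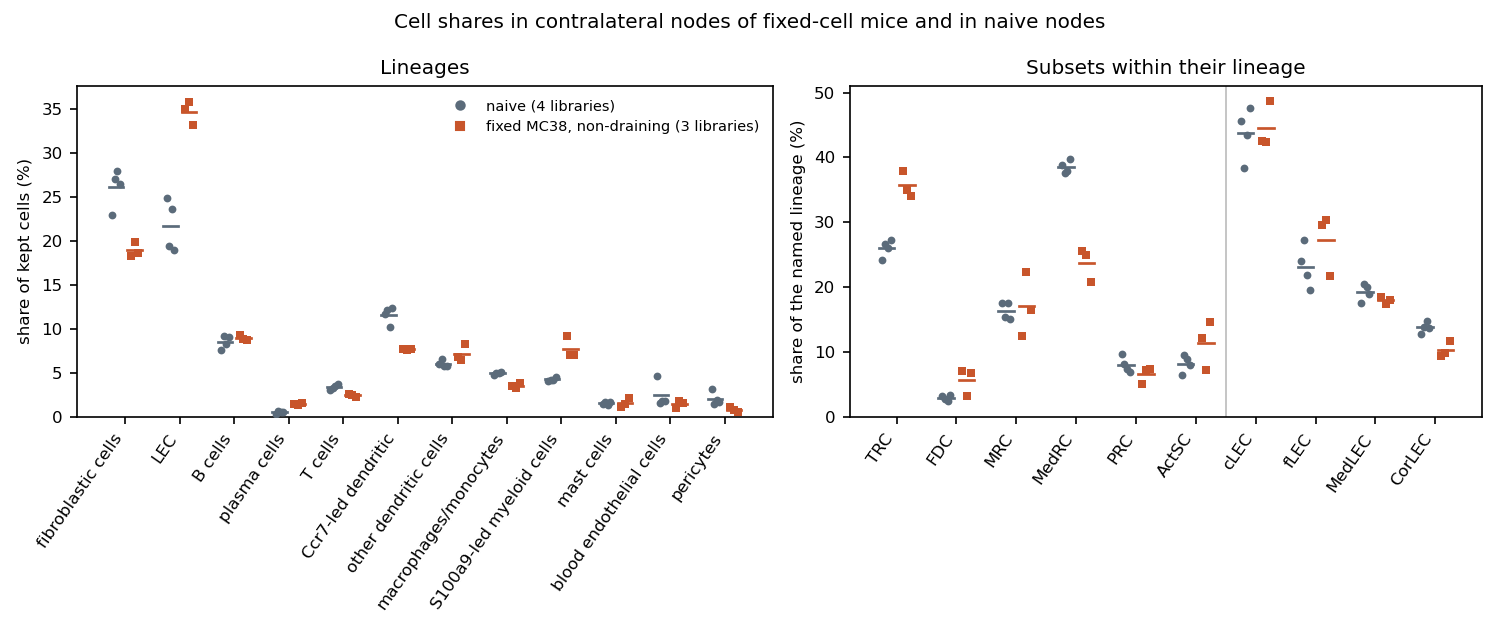
Share of each class in percent per library, with all kept cells as the denominator for the lineages on the left and the named fibroblastic cells or named LECs for the subsets on the right. Each point is 1 library and each horizontal line a group mean. LECs lie between 33.1% and 35.8% in the 3 fixed ndLN libraries, above the 18.9% to 24.8% of the 4 naive ones.

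Among named fibroblastic cells, TRCs made up 37.9%, 35% and 34.1% in the fixed ndLN and 24.1%, 26.7%, 26% and 27.2% in naive nodes (adjusted p = 0.000159). MedRCs, whose place is the medulla, made up 25.5%, 25% and 20.7% against 38.8%, 37.6%, 37.9% and 39.8% (adjusted p = 2.91e-06). Both subsets were free of overlap. CorLECs were the LEC subset that passed, at 9.34%, 9.86% and 11.6% of named LECs against 12.8%, 13.9%, 14.8% and 13.7% (adjusted p = 0.00644). That call was lost without fixed ndLN library A (adjusted p = 0.0988) and with log-normalized clustering (adjusted p = 0.0554), and fLECs passed without library C (adjusted p = 0.0434). Follicular dendritic cells and activated stromal cells (ActSCs) passed the test with overlapping libraries (adjusted p = 0.00431 and 0.0358). Neither passed without fixed ndLN library A (adjusted p = 0.143 and 0.223), nor ActSCs without library C (adjusted p = 0.257), and the follicular dendritic share turned to a log2 ratio of -1.17 when cells were clustered on log-normalized values. With 3 against 4 libraries the smallest two-sided p of an exact permutation test is 0.0571, which each share without overlap reached. A share is a part of a whole, so a class can move because another did, and log-normalized clustering left 9 shares called.

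Within classes, few genes differed. The share of tested genes called in both directions was 2.34% in cLECs (277 of 11820 genes), 1.25% in fLECs (144 of 11558), 0.926% in MedRCs (103 of 11119), 0.858% in TRCs (104 of 12115) and 0.551% in MRCs (62 of 11247). It was 0.242% in PRCs (19 of 7866), 0.295% in MedLECs (29 of 9819), 0.188% in CorLECs (15 of 7980), 0.442% in B cells (40 of 9042) and 0.368% in T cells (28 of 7616). Ccr7-led dendritic cells, added to the classes after their counts were seen, had 6.09% called (607 of 9959), a count that was 51 with at most 10% mitochondrial UMIs per cell. Classes differ in cells and depth, and these counts were not compared between classes. Without any test, the 3 fixed ndLN values of a gene lay wholly above or below the 4 naive ones for 13.6% of genes in cLECs, 10.7% in fLECs, 8.89% in MedLECs, 12.1% in CorLECs, 13% in TRCs, 17.6% in MedRCs, 12.6% in MRCs, 11.5% in PRCs, 9.77% in B cells, 11.8% in T cells and 20.7% in Ccr7-led dendritic cells. A random split of the 7 libraries would leave the groups apart with a probability of 0.0571. The cells per library were 12 to 16 PRCs but 130 to 219 cLECs in the fixed ndLN. Leaving out fixed ndLN library A, the deepest of the 3, lowered the count to 30 in TRCs, 49 in MedRCs, 9 in MRCs, 120 in cLECs, 86 in fLECs, 21 in B cells and 295 in Ccr7-led dendritic cells. Leaving out library B lowered it to 62, 67, 35, 151, 93, 22 and 330 in the same classes. Without library C it was 51 in TRCs, 58 in MedRCs, 10 in PRCs and 23 in CorLECs, and without library B it was 42 in PRCs. Of the naive libraries, C decided the TRC count (58 without it), B and D the PRC count (12 and 11) and A, B and D the B cell count (24, 25 and 22).

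Heat shock genes stood at a lower level in LECs and leukocytes of the fixed ndLN. These genes encode chaperones that keep proteins folded, and they are switched on by heat, oxidants and other damage to proteins, also while tissue is digested. Of the 18 heat shock chaperone genes listed, 15 of 18 measured were lower in cLECs, 12 of 18 in fLECs, 10 of 17 in MedLECs, 9 of 16 in T cells and 4 of 16 in B cells, and none was higher in these classes. The share of all genes called lower was 1.51% in cLECs, 0.813% in fLECs, 0.204% in MedLECs, 0.263% in T cells and 0.243% in B cells. The median log2 fold change of the list was -0.92 in cLECs, -0.74 in fLECs, -0.89 in MedLECs and -0.83 in T cells, where the median of all genes tested was 0.005 in cLECs and -0.0105 in T cells. ActSCs, a fibroblastic class high in these genes, had 11 of 17 members called lower (0.694% of all genes) with a median of -1.47, and their summed level was 9090 to 9960 CPM against 23300 to 25400 CPM in naive nodes. In the other fibroblastic subsets the median was -0.14 in TRCs, -0.27 in MedRCs, -0.04 in MRCs and -0.38 in PRCs, with 1, 1, 0 and 2 members called lower beside 0.215%, 0.378%, 0.231% and 0.089% of all genes. In CorLECs 0 of 17 members passed edgeR's adjusted p, 3 had an unadjusted p under 0.05, and the median was -0.27 (0.0251% of all genes were called lower).

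Hspa1a (chr17:34969190-34972156, GRCm38, minus strand) encodes an inducible HSP70 chaperone. In cLECs it stood at 36.0, 77.4 and 67.7 CPM in fixed ndLN libraries A, B and C and 693, 1039, 814 and 951 CPM in naive libraries A to D. Every fixed ndLN library lay far below every naive one, naive A included (log2 fold change -3.94, SE 0.23, adjusted p = 1.52e-13). Its near-identical copy Hspa1b stood at 381, 518 and 583 CPM in fixed ndLN libraries A, B and C and 2154, 3168, 2203 and 3187 CPM in naive libraries A to D. For Hspa1b the groups were also apart (log2 fold change -2.46, SE 0.15, adjusted p = 5.71e-13), and how reads were split between the 2 copies is uncertain. Hspb1, a small chaperone that binds actin, stood in fLECs at 51.5, 31.0 and 72.9 CPM in fixed ndLN libraries A, B and C and 424, 359, 357 and 364 CPM in naive libraries A to D. The fixed ndLN values for Hspb1 were all under the lowest naive one (log2 fold change -2.92, SE 0.18, adjusted p = 4.45e-13). In cLECs, Hsp90aa1, the stress-induced HSP90, was at 342, 383 and 336 CPM in fixed ndLN libraries A, B and C and 889, 1127, 853 and 1012 CPM in naive libraries A to D. Here too the libraries did not overlap (log2 fold change -1.46, SE 0.09, adjusted p = 2.47e-13).

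Other members followed with the size of the change graded by gene. In cLECs the log2 fold change was -1.77 for Dnajb1, an HSP40 partner of HSP70, -1.32 for Hsph1, a nucleotide exchange factor, -1.30 for the co-chaperone Bag3, -1.04 for Hspd1 and -1.01 for Hspe1, the mitochondrial chaperonin pair, and -0.53 for Hspa8, the constitutive HSP70. In MedLECs, Bag3 stood at 59.2, 64.2 and 49 CPM in fixed ndLN libraries A, B and C and 218, 199.6, 214 and 216 CPM in naive libraries A to D. The MedLEC libraries did not overlap for Bag3 (log2 fold change -1.86, SE 0.19, adjusted p = 6.11e-07). In B cells Hspa1a was at 15.3, 19.5 and 16.1 CPM in fixed ndLN libraries A, B and C and 305, 166, 207 and 311 CPM in naive libraries A to D. That is the steepest fall of a named gene in B cells (log2 fold change -3.89, SE 0.38, adjusted p = 4.84e-07). In T cells Hspa1b was at 101, 267 and 303 CPM in fixed ndLN libraries A, B and C and 1419, 1203, 1374 and 2129 CPM in naive libraries A to D. All 3 fixed ndLN T cell values lay under the lowest naive value (log2 fold change -2.89, SE 0.32, adjusted p = 6.39e-07).

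Summed over the 18 genes, cLECs held 5910 to 6370 CPM of heat shock transcripts in the fixed ndLN and 11600 to 14100 CPM in naive nodes, of which naive A, the naive library of the same code series, held 11600. The sum in the dLN of the same mice was 7420 to 7510 CPM, over both code series, and in the live ndLN 11200 to 13200 CPM. In MRCs the sums overlapped, at 3660 to 4160 against 3810 to 4090 CPM. PRC sums overlapped as well, at 4370 to 5410 against 5370 to 6860 CPM. TRC sums did not overlap, at 3280 to 3690 against 3910 to 4200 CPM. Nor did those of MedRCs, at 3090 to 3500 against 3870 to 4060 CPM. CorLEC sums were also apart, at 3860 to 5020 against 5370 to 6010 CPM. Over all fibroblastic cells, ActSCs included, edgeR called 10 of 18 members lower (median -0.28), beside 433 of all 15133 genes. With naive A as the only control, Hspa1a in cLECs kept a log2 fold change of -3.61 and Hspb1 in fLECs one of -3.09.

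**Figure D2:**
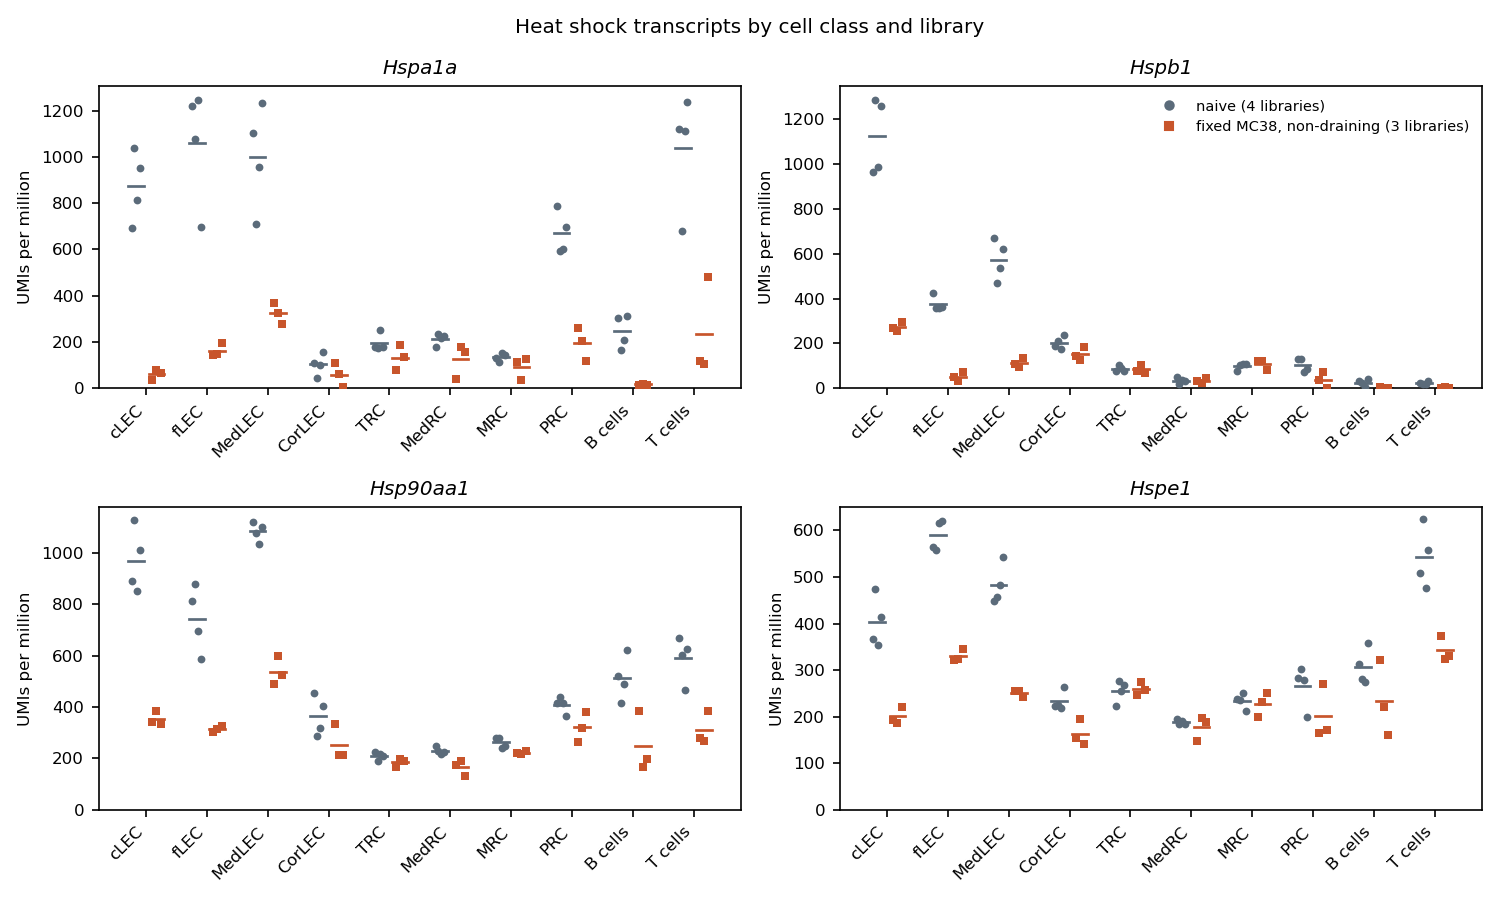
CPM of Hspa1a, Hspb1, Hsp90aa1 and Hspe1 in 10 cell classes, 1 panel for each gene, on linear axes that start at 0. Circles are the 4 naive and squares the 3 fixed ndLN libraries, and each short line is a group mean. In cLECs, Hspa1a lies between 36.0 and 77.4 CPM in the fixed ndLN and between 693 and 1039 CPM in naive nodes.

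The change of these genes differed between classes when the difference itself was tested, with each library as a block. Of 10736 genes tested in cLECs and TRCs together, 74 (0.689%) had a different change, and 8 of the 18 heat shock genes were among those lower in cLECs. Against MRCs 51 of 10212 genes differed (0.499%), with 7 of 18 heat shock genes lower in cLECs, and against CorLECs 36 of 7959 (0.452%), with 5 of 17. Between fLECs and cLECs 11 of 10909 genes differed (0.101%), with 0 of 18 heat shock genes at edgeR's adjusted p and 814 of all genes at an unadjusted p under 0.05. Hspa1a led these differences, with a change lower in cLECs by -3.31 log2 units than in TRCs and by -3.32 than in MRCs. Heat shock genes also help to define clusters: they lead LEC cluster 8, in MedLECs, and LEC cluster 12, in fLECs, which held 6.67% to 13.8% of fLECs in the fixed ndLN and 14.6% to 30.4% in naive nodes. Within single LEC clusters 13 of 17 measured members were lower in clusters 4 and 5 and 3 of 18 in clusters 2 and 7. Cluster 6 had 2 of 17, cluster 0 had 1 of 17 and, at edgeR's adjusted p, cluster 3 had 0 of 17. Of all genes, 60 of 8897 were lower in cluster 4 and 97 of 4808 in cluster 5. Clusters 2 and 7 had 23 of 9655 and 8 of 7328 lower. Clusters 6, 0 and 3 had 4 of 6015, 30 of 10101 and 2 of 7980. Of the 3 MedLEC clusters, the heat-shock-led cluster 8 had 12 of 17 lower (median log2 fold change -1.22), beside 37 of all 6560 genes. EdgeR called 0 of 17 in cluster 11 (-0.15) and 0 of 14 in cluster 14 (-0.02).

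Heat shock factors bind DNA at repeats of the 5 bases NGAAN in alternating orientation. The stretches before the start of 3 of the genes are shown because they hold such repeats. They are the RefSeq sequences for GRCm38.p6, 5′ to 3′ on the strand of the gene, with capitals for an inverted pair of units (GAANNTTC or TTCNNGAA): 250 bases of Hspa1a at chr17:34972157-34972406, minus strand, 250 bases of Hspb1 at chr5:135887669-135887918, plus strand, and 30 bases of Hspe1 at chr1:55088053-55088082, plus strand.
Hspa1a: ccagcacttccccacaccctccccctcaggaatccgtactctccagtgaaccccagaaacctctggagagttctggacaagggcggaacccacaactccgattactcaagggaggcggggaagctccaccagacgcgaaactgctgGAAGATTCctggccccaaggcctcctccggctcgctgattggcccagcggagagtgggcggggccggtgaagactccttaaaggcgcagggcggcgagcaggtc
Hspb1: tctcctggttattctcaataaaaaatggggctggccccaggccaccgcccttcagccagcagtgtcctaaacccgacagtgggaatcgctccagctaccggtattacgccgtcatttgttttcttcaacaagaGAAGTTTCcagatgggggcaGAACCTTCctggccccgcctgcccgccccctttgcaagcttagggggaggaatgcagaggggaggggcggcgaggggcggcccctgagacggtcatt
Hspe1: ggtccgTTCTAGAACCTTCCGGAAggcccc
Such a pair, which reads the same on both strands, was found in 12.8% of 32851 promoters of the same window and 3 alternating units, which contain overlapping pairs, in 0.466%. Of the 18 listed heat shock genes 14 were matched to a promoter, too few for a statement on the list. Among the 14, a promoter with a pair was found for 8 and one with 3 units for 2, Hspd1 and Hspe1, which share a promoter region. This is a description of letters and says nothing of binding in these cells.

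Immediate early genes encode transcription factors of the FOS, JUN and EGR kinds and their brakes, and they respond within minutes to growth factors, flow, calcium or handling. Their change had opposite directions in different classes. In cLECs 8 of 24 measured members were lower and 1 higher (median log2 fold change -0.26), beside 1.51% and 0.838% of all genes. In fLECs 12 of 23 were lower (-0.43), beside 0.813% of all genes. In CorLECs 7 of 19 were higher (0.95; 0.163% of all genes were called higher) and in MRCs 5 of 20 (0.61; 0.32% of all genes). TRCs, MedRCs and PRCs each had 2 members higher (median 0.18, 0.19 and 0.51) and none lower, beside 0.644%, 0.549% and 0.153% of all genes called higher. Tested directly, the log2 fold change of 12 of 19 members was lower in cLECs than in CorLECs, of 5 of 21 lower than in TRCs and of 6 of 20 lower than in MRCs. Within LEC cluster 0, which held 69% to 81.6% of fLECs in the fixed ndLN, 4 of 21 members were higher and 1 lower (median 0.115). Of all 10101 genes there, 35 were higher and 30 lower. In cLECs, cluster 4 had 5 of 24 lower, beside 60 of all 8897 genes. Cluster 5 had 2 of 23 lower and 1 higher, beside 97 and 61 of all 4808 genes. Clusters 2 and 6 each had 1 higher and 0 lower, beside 24 of 9655 and 5 of 6015 genes higher. In cluster 7 edgeR called 0 of 21 (median -0.41). The part of cluster makeup in the class values was not tested.

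Fosb, a FOS family factor, stood in CorLECs at 352, 188 and 231 CPM in fixed ndLN libraries A, B and C and 12.6, 11.6, 24.0 and 49.6 CPM in naive libraries A to D. Every fixed ndLN value was above every naive one (log2 fold change 3.49, SE 0.42, adjusted p = 6.1e-07). Junb, a JUN factor that restrains proliferation, was at 671, 348 and 391 CPM in fixed ndLN libraries A, B and C and 79.8, 85.0, 111 and 164 CPM in naive libraries A to D. The Junb libraries did not overlap either (log2 fold change 2.17, SE 0.24, adjusted p = 5.4e-08). Dusp1, the phosphatase that ends MAP kinase signals, was at 339.8, 228 and 307 CPM in fixed ndLN libraries A, B and C and 74.2, 85.0, 57.1 and 109 CPM in naive libraries A to D. For Dusp1, singled out after its values were seen, the fixed ndLN libraries were all higher (log2 fold change 1.88, SE 0.25, adjusted p = 3.96e-06). Egr1 and Zfp36, which encodes an RNA-binding protein that shortens the life of cytokine transcripts, had log2 fold changes of 1.96 and 2.31 in the same cells. Calls in CorLECs were lost (adjusted p in parentheses) without fixed ndLN library A for Zfp36 (0.176), and also with the code series as a term for Zfp36 (log2 fold change 1.49, adjusted p = 0.154) and with naive A as the only control for Egr1 (0.0658) and Zfp36 (log2 fold change 1.38, adjusted p = 0.3).

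In cLECs, Fos stood at 1684, 1644 and 1714 CPM in fixed ndLN libraries A, B and C and 2021, 2615, 2217 and 2286 CPM in naive libraries A to D. The fixed ndLN values were lower without overlap (log2 fold change -0.44, SE 0.08, adjusted p = 0.000644), but the adjusted p was 0.336 with naive A as the only control and 0.0569 with the code series as a term. Atf3, a stress-response factor, was at 39.2, 30.9 and 10.1 CPM in fixed ndLN libraries A, B and C and 121, 188, 135 and 141 CPM in naive libraries A to D. Its fall in cLECs was the steepest of the list (log2 fold change -2.30, SE 0.25, adjusted p = 2.26e-07). Klf2, the flow-sensitive factor of endothelium, stood in fLECs at 73.8, 110.4 and 107 CPM in fixed ndLN libraries A, B and C and 322, 360, 333 and 227 CPM in naive libraries A to D. All 3 fixed ndLN values of Klf2 lay under the lowest naive value (log2 fold change -1.76, SE 0.15, adjusted p = 3.05e-10). In cLECs Klf2 was at 886, 938 and 886 CPM in fixed ndLN libraries A, B and C and 958, 983, 1041 and 1067 CPM in naive libraries A to D. That did not pass (log2 fold change -0.16, SE 0.07, adjusted p = 0.221), and the change of Klf2 differed between the subsets by -1.56 log2 units.

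Among fibroblastic subsets, MRCs had Ier2, an early nuclear factor, at 69.2, 65.0 and 74.0 CPM in fixed ndLN libraries A, B and C and 14.4, 21.1, 12.1 and 10.1 CPM in naive libraries A to D. The 3 fixed ndLN values of Ier2 were the highest (log2 fold change 2.24, SE 0.39, adjusted p = 0.00185). PRCs had Fosb at 767, 515 and 646 CPM in fixed ndLN libraries A, B and C and 316, 209, 221 and 282 CPM in naive libraries A to D. For Fosb in PRCs the groups were apart as well (log2 fold change 1.3, SE 0.18, adjusted p = 0.000298). Because cells with high Nr4a1, Atf3 and Fosb were grouped as ActSCs, a part of the response in fibroblastic cells can sit in that class. The members called in MRCs were Ier2, Fosb, Egr1, Fos and Junb, with a log2 fold change of 0.80 for Fos. Leaving libraries out ended calls in MRCs (adjusted p in parentheses) without fixed ndLN library A for Ier2 (0.0589), Fosb (0.45), Egr1 (0.309), Fos (0.203) and Junb (0.212), B for Fosb (0.258), Fos (0.353) and Junb (0.11), C for Egr1 (0.19), Fos (0.0669) and Junb (0.129), without naive library A for Fosb (0.0815), Egr1 (0.075), Fos (0.0727) and Junb (0.0758), B for Fosb (0.0715), C for Fosb (0.0829) and Fos (0.0829) and D for Egr1 (0.0617), Fos (0.0781) and Junb (0.0692). So did other settings, with the code series as a term for Fosb (0.282), Egr1 (0.0795), Fos (0.214) and Junb (0.289), with naive A as the only control for Ier2 (0.0584), Fosb (0.271), Fos (0.275) and Junb (0.242), with log-normalized clustering for Ier2 (log2 fold change 0.74, adjusted p = 0.719), Fosb (log2 fold change 0.65, adjusted p = 0.661), Egr1 (log2 fold change 0.48, adjusted p = 0.687), Fos (log2 fold change -0.43, adjusted p = 0.676) and Junb (log2 fold change 0.30, adjusted p = 0.802) and with at most 10% mitochondrial UMIs for Fosb (0.0751), Egr1 (0.135), Fos (0.228) and Junb (0.178). In PRCs the call of Fosb was lost with naive A as the only control (0.257).

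**Figure D3:**
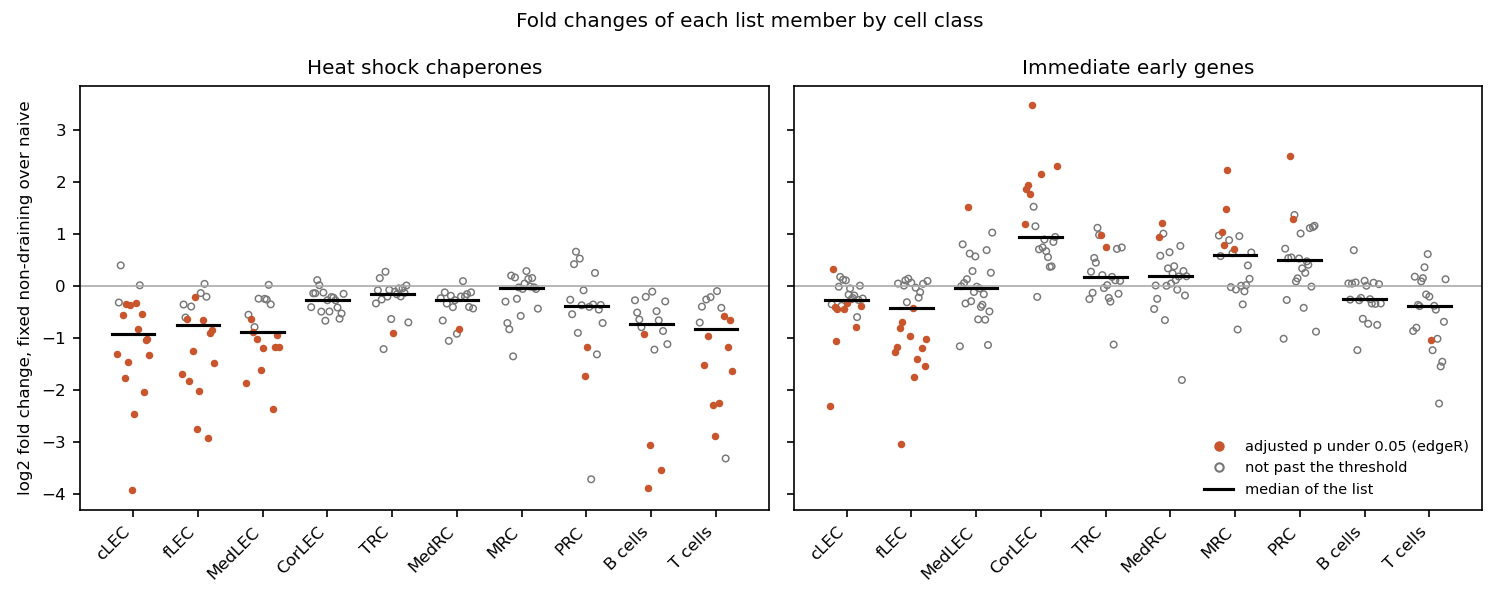
Log2 fold change, fixed ndLN over naive, of every measured member of the heat shock list (left) and the immediate early list (right) in 10 classes. Filled points passed an edgeR adjusted p of 0.05, open ones did not, and each black line is the median of the list, which runs from -0.92 in cLECs to -0.04 in MRCs on the left and from -0.43 in fLECs to 0.95 in CorLECs on the right.

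Several transcripts moved the same way in at least 4 classes. Of the 10 classes fixed for testing, the small nuclear RNA gene Rn7sk, which holds back transcription elongation, was higher in 9, and so was Erdr1, a gene of uncertain role at the end of the sex chromosomes. The mitochondrial ribosomal RNAs mt-Rnr2 and mt-Rnr1 were higher in 8 and 6 classes, and Rps28, a ribosomal protein gene, in 6. Fosb was higher in 5 and Gm26802, a gene without a known role, in 4. Lower in several were Hspa1b in 8 classes, Hspa1a and Dcn in 6 each and Hsp90aa1 in 5. Cxcl12 and Ccl5, chemokine genes, were lower in 4 classes each. These class counts are those of the main fit, and not every call held in other settings. Among calls lost with naive A as the only control were Hspa1b in TRCs (log2 fold change -0.827) and MedRCs (-0.625). Others were Dcn in MedRCs (-0.677), Cxcl12 in cLECs (-0.986), Rn7sk in MRCs (0.685) and Erdr1 in PRCs (1.385).

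Erdr1 stood in MRCs at 213, 136 and 166 CPM in fixed ndLN libraries A, B and C and 64.9, 64.0, 70.9 and 60.4 CPM in naive libraries A to D. Each fixed ndLN value was above the naive range (log2 fold change 1.40, SE 0.15, adjusted p = 2.56e-07). Rn7sk, a transcript without a poly(A) tail, was in T cells at 1039, 978 and 1401 CPM in fixed ndLN libraries A, B and C and 305, 406, 388 and 393 CPM in naive libraries A to D. The Rn7sk values in T cells did not overlap (log2 fold change 1.60, SE 0.14, adjusted p = 9.53e-09). mt-Rnr2, the large ribosomal RNA of mitochondria, was in B cells at 56680, 55100 and 71540 CPM in fixed ndLN libraries A, B and C and 30550, 31390, 30160 and 32560 CPM in naive libraries A to D. It was higher in every fixed ndLN library (log2 fold change 0.97, SE 0.11, adjusted p = 3.18e-06). In Ccr7-led dendritic cells mt-Rnr2 had a log2 fold change of 1.56, and 0.84 when cells over 10% mitochondrial UMIs were left out.

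The messenger RNAs of mitochondria did not follow the ribosomal RNAs. Of 13 protein-coding mitochondrial genes, 7 were lower in cLECs (1.51% of all genes were), 6 in fLECs (0.813%), 5 in B cells (0.243%) and 2 in MedLECs (0.204%), but 5 were higher in MedRCs (0.549%) and 3 were higher and 1 lower in TRCs (0.644% and 0.215%). mt-Nd4, a subunit of complex I, stood in cLECs at 1951, 1823 and 2011 CPM in fixed ndLN libraries A, B and C and 3155, 3027, 3180 and 3251 CPM in naive libraries A to D. In cLECs the fixed ndLN values were all lower (log2 fold change -0.71, SE 0.07, adjusted p = 1.19e-08). In MedRCs it stood at 3127, 2893 and 4048 CPM in fixed ndLN libraries A, B and C and 2108, 1925, 2183 and 1993 CPM in naive libraries A to D. Here every fixed ndLN value was higher (log2 fold change 0.70, SE 0.09, adjusted p = 2e-05), with the call lost with naive A as the only control (0.0811). The change of mt-Nd4 differed between cLECs and TRCs by -0.99 and between MedRCs and TRCs by 0.42 log2 units. Mitochondrial removal and median share, given above, were higher in the fixed ndLN libraries. They moved with the ribosomal RNAs but against the lower messenger RNAs of cLECs, fLECs, B cells and MedLECs. Their part in the result was not tested.

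**Figure D4:**
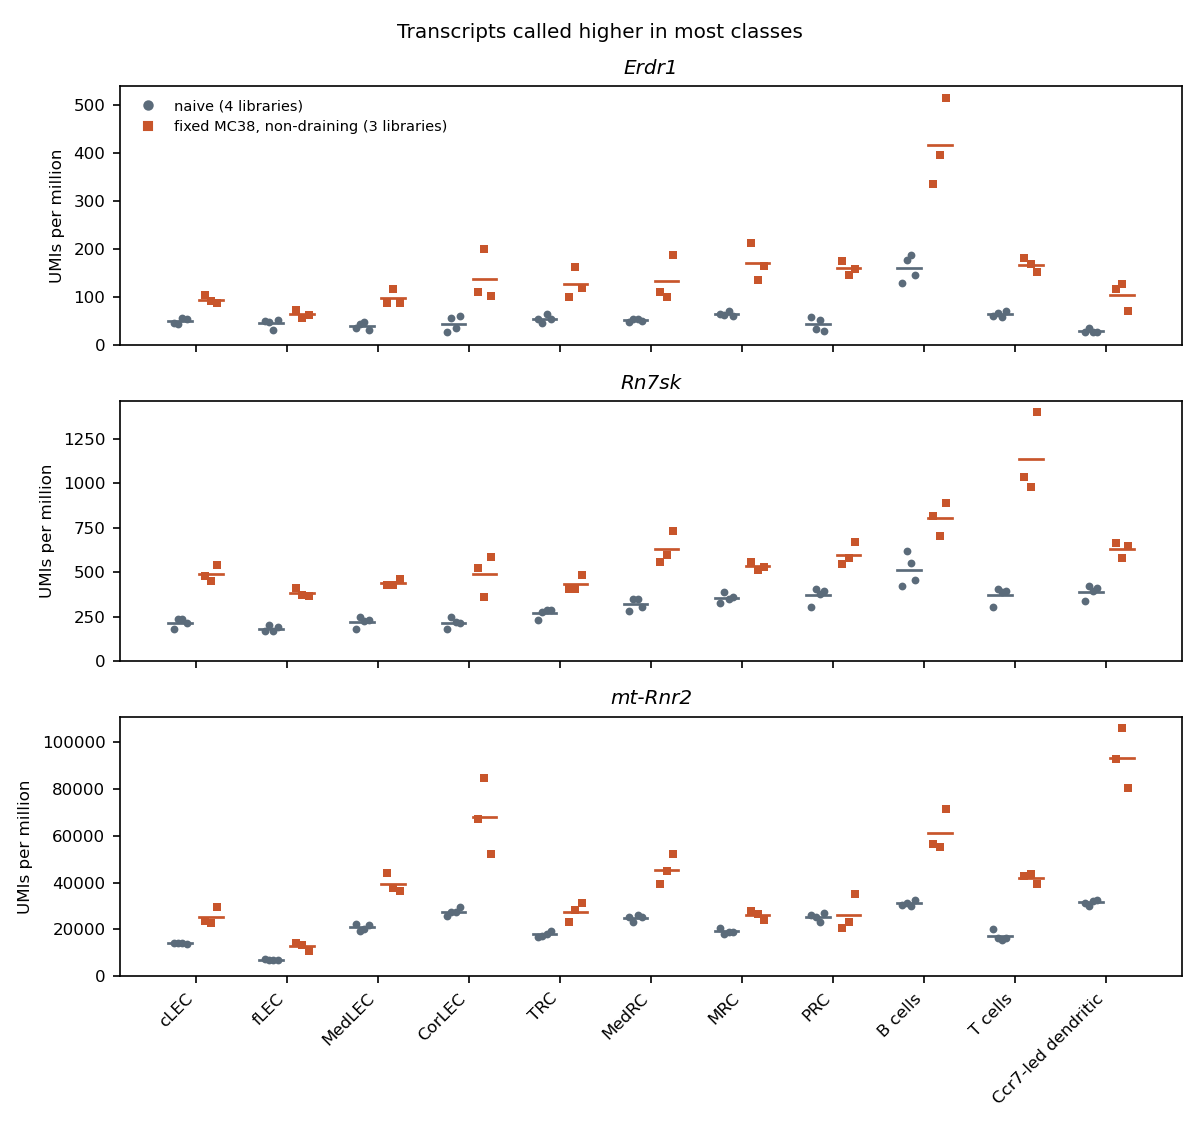
CPM of Erdr1, Rn7sk and mt-Rnr2 in 10 classes and in Ccr7-led dendritic cells, on linear axes that start at 0. Circles are the 4 naive and squares the 3 fixed ndLN libraries, with a line at each group mean. Rn7sk in T cells lies between 978 and 1401 CPM in the fixed ndLN and between 305 and 406 CPM in naive nodes.

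MRCs, which lie next to the subcapsular sinus and produce the B cell chemokine CXCL13, had 36 genes higher and 26 lower. Higher genes included the addressin Madcam1 and the BMP-responsive inhibitors Id1, Smad6 and Smad7, and lower genes included the matrix genes Dcn, Lum and Dpt and the chemokine Cxcl12. Madcam1 (chr10:79664559-79668537), the adhesion ligand for the integrin α4β7, stood at 543, 484 and 493 CPM in fixed ndLN libraries A, B and C and 216, 170.1, 169 and 153 CPM in naive libraries A to D. Each fixed ndLN value was above the highest naive value (log2 fold change 1.51, SE 0.13, adjusted p = 3.91e-09). Madcam1 is 1 of the genes by which MRCs were named, so its value in MRCs is a description of the cells so named. It was also higher inside both clusters that hold the MRCs, by 1.49 and 1.37 log2 units. With naive A as the only control its log2 fold change was 1.21 (adjusted p = 0.0013). In TRCs, which were not named by it, Madcam1 stood at 127, 78.7 and 143 CPM in fixed ndLN libraries A, B and C and 59.1, 74.6, 42.0 and 53.8 CPM in naive libraries A to D. For TRCs the lowest fixed ndLN library, B, was just above the highest naive one (log2 fold change 0.99, SE 0.17, adjusted p = 0.0014), and the call was lost without fixed ndLN library A (adjusted p = 0.0871).

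Id1, an inhibitor of differentiation factors that BMP signals raise, was in MRCs at 487, 424 and 254 CPM in fixed ndLN libraries A, B and C and 213, 181, 194 and 174 CPM in naive libraries A to D. The Id1 libraries did not overlap (log2 fold change 1.05, SE 0.14, adjusted p = 2.26e-05). Smad6 was at 146, 153 and 119.8 CPM in fixed ndLN libraries A, B and C and 97.4, 73.4, 61.0 and 84.7 CPM in naive libraries A to D. Smad6 encodes an inhibitory SMAD, and its values were all higher (log2 fold change 0.82, SE 0.17, adjusted p = 0.00887). Smad7, the other inhibitory SMAD, had a log2 fold change of 0.71, Ngfr, the low-affinity nerve growth factor receptor, one of 0.62 and Grin3a, a glutamate receptor subunit, one of 1.32. Of these genes, calls were lost (adjusted p in parentheses) without fixed ndLN library A for Smad6 (0.203), Smad7 (log2 fold change 0.46, adjusted p = 0.514), Ngfr (0.138) and Grin3a (0.25), B for Smad6 (0.114), C for Smad7 (0.0799) and Grin3a (0.0519), without naive library B for Smad7 (0.0573) and C for Smad7 (0.0792). They were also lost with the code series as a term for Smad6 (0.166), Smad7 (0.216), Ngfr (0.0571) and Grin3a (0.216), with naive A as the only control for Id1 (0.115), Smad6 (log2 fold change 0.51, adjusted p = 0.471), Smad7 (0.625), Ngfr (0.304) and Grin3a (0.275), with log-normalized clustering for Smad6 (0.0928), Smad7 (0.297) and Grin3a (0.0951) and with at most 10% mitochondrial UMIs for Smad7 (0.0786). Id1, Smad6, Smad7 and Ngfr were singled out after their values were seen.

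Decorin (Dcn), a small proteoglycan that binds collagen and TGF-β, was in MRCs at 1233, 1111 and 937 CPM in fixed ndLN libraries A, B and C and 2749, 2490, 2529 and 2548 CPM in naive libraries A to D. All 3 fixed ndLN values of Dcn were under the lowest naive value (log2 fold change -1.23, SE 0.13, adjusted p = 1.25e-07). Lum, its relative lumican, was at 2.66, 14.1 and 3.52 CPM in fixed ndLN libraries A, B and C and 40.9, 51.6, 54.6 and 56.2 CPM in naive libraries A to D. The Lum counts were few in the fixed ndLN (log2 fold change -2.85, SE 0.55, adjusted p = 0.00676). Dpt, a matrix protein that binds decorin, was at 21.3, 0 and 14.1 CPM in fixed ndLN libraries A, B and C and 91.4, 85.8, 73.7 and 80.5 CPM in naive libraries A to D. With no UMI in fixed ndLN library B, Dpt was still called (log2 fold change -2.80, SE 0.38, adjusted p = 2.36e-05). The changes of Dcn, Lum and Dpt in MRCs were lower than in TRCs by -1, -2.57 and -2.25 log2 units, tested directly. Serpinf1, which encodes the angiogenesis inhibitor PEDF, had a log2 fold change of -1.54. The matrix calls in MRCs were lost (adjusted p in parentheses) without fixed ndLN library A for Lum (0.208), and also with the code series as a term for Lum (0.0809), with naive A as the only control for Lum (0.165), with log-normalized clustering for Lum (log2 fold change -1.86, adjusted p = 0.402) and Serpinf1 (log2 fold change -1.01, adjusted p = 0.111) and with at most 10% mitochondrial UMIs for Lum (log2 fold change -1.81, adjusted p = 0.202).

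Cxcl12, the chemokine that holds plasma cells and lymphocytes through CXCR4, stood in MRCs at 1584, 1629 and 2501 CPM in fixed ndLN libraries A, B and C and 2951, 3132, 3353 and 3588 CPM in naive libraries A to D. Its fixed ndLN values did not overlap with the naive ones (log2 fold change -0.78, SE 0.15, adjusted p = 0.00835). Igf1, an insulin-like growth factor, had a log2 fold change of -0.74. Dcn, Lum, Dpt and Cxcl12 are also genes of MedRCs, a class with a smaller share in the fixed ndLN. Serpina3n, a protease inhibitor of the acute phase, and Ccl19 fell by 1.67 and 1.03 on the log2 scale in MRCs but stood at 0.12 and 0.64 when cells were grouped on log-normalized values. Leaving libraries out ended calls of this group (adjusted p in parentheses) without fixed ndLN library A for Cxcl12 (0.208), Igf1 (0.145), Serpina3n (0.273) and Ccl19 (0.381), B for Cxcl12 (0.0967), Igf1 (0.122), Serpina3n (0.175) and Ccl19 (0.247), C for Igf1 (0.0537), without naive library B for Ccl19 (log2 fold change -0.65, adjusted p = 0.173) and C for Serpina3n (0.0578) and Ccl19 (0.0538). Calls were lost too with the code series as a term for Cxcl12 (0.227) and Igf1 (0.0764). With naive A as the only control the calls of Cxcl12, Igf1, Serpina3n and Ccl19 were lost. Their log2 fold changes were then -0.66, -0.73, -1.47 and -0.31. Ccl19 and Igf1 were singled out after their values were seen.

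**Figure D5:**
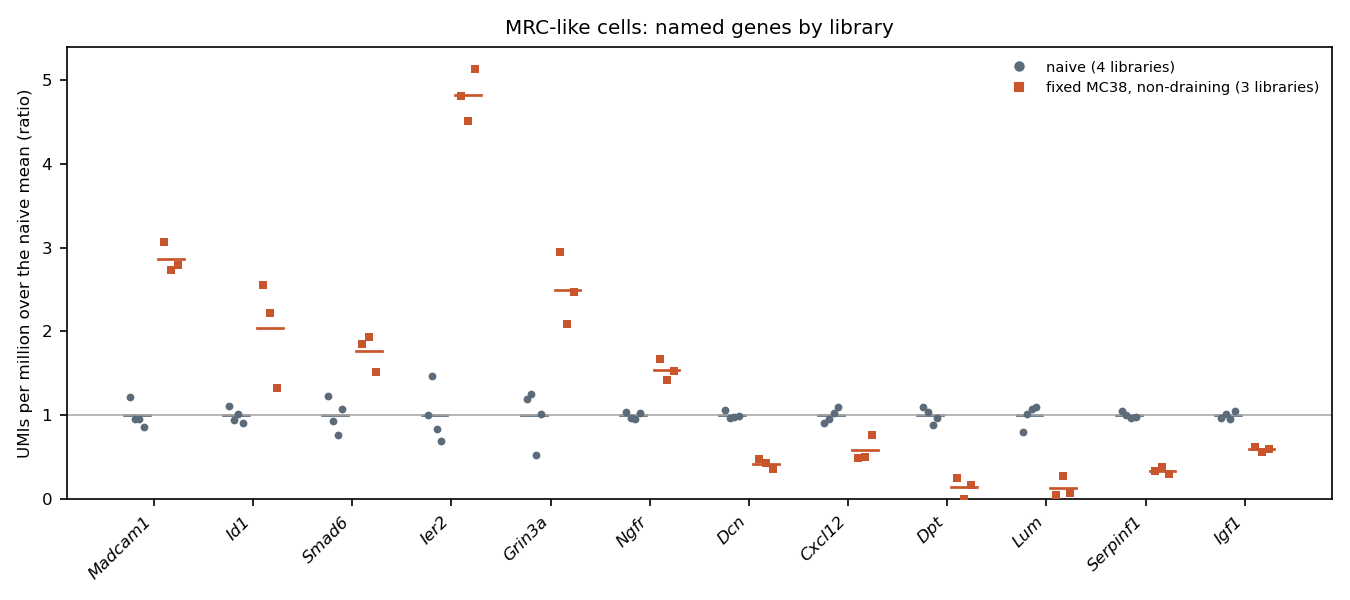
Level of 12 genes in MRCs, as the CPM of each library divided by the mean of the 4 naive libraries, on a linear axis that starts at 0 with a grey line at a ratio of 1. Circles are naive and squares fixed ndLN libraries, and each short line is a group mean. Madcam1, Id1, Smad6, Ier2, Grin3a and Ngfr lie above 1 in all 3 fixed ndLN libraries, and Dcn, Cxcl12, Dpt, Lum, Serpinf1 and Igf1 lie below it.

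TRCs had 78 genes higher and 26 lower. Ifi27l2a, an interferon-inducible gene, stood in TRCs at 115, 234 and 119 CPM in fixed ndLN libraries A, B and C and 56.1, 67.8, 59.4 and 54.6 CPM in naive libraries A to D. Library B was the highest, and the groups did not overlap (log2 fold change 1.36, SE 0.20, adjusted p = 0.000137). In PRCs the same gene was at 243, 384 and 185 CPM in fixed ndLN libraries A, B and C and 468, 778, 693 and 743 CPM in naive libraries A to D. There every fixed ndLN value was lower (log2 fold change -1.25, SE 0.25, adjusted p = 0.0254). The PRC call was lost (adjusted p in parentheses) without fixed ndLN library A (0.181), C (0.155), without naive library B (0.0643) and D (0.0598), and also with the code series as a term (0.242), with naive A as the only control (log2 fold change -0.78, adjusted p = 0.743) and with at most 10% mitochondrial UMIs (0.149). Ier3, an early survival gene, was in TRCs at 59.5, 127 and 41.5 CPM in fixed ndLN libraries A, B and C and 39.4, 40.4, 34.2 and 39.4 CPM in naive libraries A to D. Library C was only just above the naive range for Ier3 (log2 fold change 0.99, SE 0.21, adjusted p = 0.0113). Timp1, an inhibitor of matrix proteases singled out after its values were seen, had a log2 fold change of 1.29 in TRCs. Postn, which encodes the matrix protein periostin, was at 43.3, 58.7 and 35.8 CPM in fixed ndLN libraries A, B and C and 77.3, 108, 108 and 75.9 CPM in naive libraries A to D. Its fixed ndLN values were below the naive range (log2 fold change -0.99, SE 0.18, adjusted p = 0.00221). Ly6a, a surface antigen of stem and stromal cells, fell by 0.83 on the log2 scale but stood at 0.01 with log-normalized clustering. In TRCs calls were lost (adjusted p in parentheses) without fixed ndLN library A for Postn (0.0866) and Ly6a (0.429), B for Ier3 (log2 fold change 0.48, adjusted p = 0.393), Timp1 (0.0646) and Ly6a (0.0804), C for Ly6a (0.102), without naive library B for Ly6a (0.0877), C for Ly6a (0.0595) and D for Ly6a (0.114). They did not pass with the code series as a term for Ier3 (0.147) and Postn (0.0708). Log-normalized clustering ended the calls of Timp1 (0.0636) and Postn (log2 fold change -0.15, adjusted p = 0.801). With naive A as the only control the calls of Ier3, Timp1, Postn and Ly6a were lost. Their log2 fold changes were then 0.94, 1.26, -0.75 and -0.39.

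MedRCs had 61 genes higher and 42 lower. Cyr61, a matricellular protein that responds to stretch, stood at 86.7, 139 and 514 CPM in fixed ndLN libraries A, B and C and 45.8, 17.9, 54.4 and 50.8 CPM in naive libraries A to D. Library C was far above the others, and without it the log2 fold change was 1.41 (adjusted p = 0.0593) against log2 fold change 2.18, SE 0.36, adjusted p = 0.00043 with it. In the dLN of the same mice Cyr61 had a log2 fold change of 3.29 against naive. Cyp26b1, the enzyme that breaks down retinoic acid, was at 183, 211 and 125 CPM in fixed ndLN libraries A, B and C and 71.2, 77.5, 86.4 and 66.3 CPM in naive libraries A to D. The Cyp26b1 groups did not overlap (log2 fold change 1.28, SE 0.18, adjusted p = 6.37e-05). Cxcl13 was at 1245, 1363 and 1203 CPM in fixed ndLN libraries A, B and C and 2258, 2275, 2600 and 1707 CPM in naive libraries A to D. Cxcl13, a B cell chemokine singled out after its values were seen, was lower in all 3 fixed ndLN libraries (log2 fold change -0.79, SE 0.15, adjusted p = 0.00192). Acta2, smooth muscle actin, and Gpx3, a secreted peroxidase, both singled out likewise, had log2 fold changes of -0.84 and -0.68. Tgfb2, also singled out after its values were seen, rested on library A, at 72.3, 14.4 and 6.27 CPM in fixed ndLN libraries A, B and C and 7.18, 3.66, 4.90 and 4.26 CPM in naive libraries A to D. Tnc fell by 1.54 on the log2 scale but stood at 0.48 with at most 10% mitochondrial UMIs. Leaving libraries out ended MedRC calls (adjusted p in parentheses) without fixed ndLN library A for Tgfb2 (log2 fold change 1.21, adjusted p = 0.614) and Tnc (0.215), B for Tnc (0.146), C for Tnc (0.173), without naive library A for Tnc (0.0629) and D for Tnc (0.0517). Within MedRCs, cluster 2 held 50% to 70.6% of cells in the fixed ndLN and 30.6% to 37.2% in naive nodes, and cluster 10, led by Stc1, held 9.72% to 20% against 28.8% to 33.3%. These changes of makeup stand beside the gene values, and their part in them was not tested.

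PRCs, with 12 to 16 cells per fixed ndLN library, had 12 genes higher and 7 lower. Enpp2, which makes the lipid mediator lysophosphatidic acid, was at 563, 237 and 646 CPM in fixed ndLN libraries A, B and C and 142, 27, 60.2 and 66.6 CPM in naive libraries A to D. Each fixed ndLN value of Enpp2 exceeded the naive range (log2 fold change 2.54, SE 0.35, adjusted p = 0.000283). Hmcn1, a large matrix protein, was at 126, 57.2 and 185 CPM in fixed ndLN libraries A, B and C and 15.6, 19.6, 14.4 and 28.2 CPM in naive libraries A to D. Its libraries did not overlap (log2 fold change 2.58, SE 0.43, adjusted p = 0.00234). Plac8, a gene of myeloid and stromal cells, was at 214, 123 and 224 CPM in fixed ndLN libraries A, B and C and 541, 827, 428 and 525 CPM in naive libraries A to D. It was lower in every fixed ndLN library (log2 fold change -1.68, SE 0.30, adjusted p = 0.00546). Calls in PRCs were lost (adjusted p in parentheses) without fixed ndLN library B for Plac8 (0.0547) and C for Hmcn1 (0.0602), and also with the code series as a term for Plac8 (0.0772) and with naive A as the only control for Enpp2 (log2 fold change 1.66, adjusted p = 0.0602), Hmcn1 (0.0569) and Plac8 (0.0569).

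Genes of cholesterol synthesis were higher in fLECs, but not only there. Of 19 measured members of that list 6 were called higher in fLECs (0.433% of all genes were), 18 of 19 had a positive log2 fold change, and the median was 0.45. Summed over all fibroblastic cells, 8 of 19 were called higher and 19 were positive (median 0.40), beside 549 of all 15133 genes called higher. Over all LECs 10 of 19 were called higher and 18 were positive (median 0.32), beside 442 of all 14364 genes. In MRCs 1 of 19 was called, 17 were positive and the median was 0.50, and in cLECs 0 of 18 passed edgeR's adjusted p, with 2 at an unadjusted p under 0.05. Idi1, an isomerase of the isoprenoid steps, was in fLECs at 49.4, 67.5 and 52.9 CPM in fixed ndLN libraries A, B and C and 31.2, 32.7, 27.3 and 33.4 CPM in naive libraries A to D. The Idi1 libraries did not overlap (log2 fold change 0.84, SE 0.15, adjusted p = 0.00134). Cyp51, the lanosterol demethylase, was at 49.4, 51.1 and 31.4 CPM in fixed ndLN libraries A, B and C and 29.1, 23.2, 22.1 and 25.8 CPM in naive libraries A to D. Cyp51 was higher in each fixed ndLN library (log2 fold change 0.88, SE 0.18, adjusted p = 0.00366). Sqle and Msmo1, later enzymes of the same path, had log2 fold changes of 0.87 and 0.64 and were singled out after their values were seen. Calls of the list were lost (adjusted p in parentheses) without fixed ndLN library A for Cyp51 (0.124) and Sqle (0.101), B for Msmo1 (0.06) and Sqle (0.0918) and without naive library A for Sqle (0.0511), and also with the code series as a term for Cyp51 (0.141) and with naive A as the only control for Idi1 (0.0954), Cyp51 (0.407) and Sqle (0.053). In the live ndLN, which is compared with the same naive libraries, the log2 fold change of Idi1 was 0.72.

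Fgf23, a hormone of phosphate balance, was not detected in fLECs of the fixed ndLN, with 0 UMIs in 3 libraries, while naive libraries A to D held 18.9, 19.6, 4.54 and 3.03 CPM. A floor of 3 counts over the fixed ndLN group is 0.829 CPM, against 12.8 CPM in the naive libraries pooled. The pooled value is 15.5 times the floor, but naive C and D lay far nearer to the floor than A and B. Fgf23 was called lower (edgeR adjusted p = 0.019). The call was lost (adjusted p in parentheses) without fixed ndLN library A (0.186), B (0.0894) and without naive library B (0.0672), and also with the code series as a term (0.161). Clec4g, a lectin of sinus endothelium singled out after its values were seen, was at 112, 100.4 and 103 CPM in fixed ndLN libraries A, B and C and 61.4, 58.4, 50.6 and 81.9 CPM in naive libraries A to D. Its fixed ndLN values were all higher (log2 fold change 0.77, SE 0.13, adjusted p = 0.000394). MedLECs had 9 genes higher (0.0917%) and 20 lower. There Ccl8, a chemokine for monocytes, was at 23.7, 13.3 and 18.1 CPM in fixed ndLN libraries A, B and C and 113, 60.7, 64.2 and 34.2 CPM in naive libraries A to D. Ccl8 was lower in each fixed ndLN library (log2 fold change -1.85, SE 0.41, adjusted p = 0.0382), but the call was lost (adjusted p in parentheses) without fixed ndLN library A (0.16), B (0.251), C (0.127), without naive library A (0.147) and C (0.0524), and also with at most 10% mitochondrial UMIs (0.351). Ccl8 also leads cluster 23, of macrophages. The 5 macrophage and monocyte markers summed in MedLECs to 15.3 to 59.9 CPM in the fixed ndLN and 73.4 to 158 CPM in naive nodes. The part of macrophage RNA in the Ccl8 values was not tested.

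B cells had 18 genes higher (0.199%) and 22 lower. Mybl1 (chr1:9667415-9700209, minus strand), a MYB factor of dividing follicular B cells, stood at 237, 284 and 402 CPM in fixed ndLN libraries A, B and C and 165, 104, 133 and 118 CPM in naive libraries A to D. Every fixed ndLN value of Mybl1 was above every naive one (log2 fold change 1.16, SE 0.18, adjusted p = 0.000635). Gcsam, which slows the movement of germinal center B cells, was at 97.5, 62.3 and 59.0 CPM in fixed ndLN libraries A, B and C and 42.2, 32.6, 18.2 and 30.4 CPM in naive libraries A to D. Its groups were apart (log2 fold change 1.32, SE 0.27, adjusted p = 0.0203). S1pr2, the receptor that confines these cells to the follicle, was at 99.4, 81.7 and 123 CPM in fixed ndLN libraries A, B and C and 56.7, 43.5, 54.6 and 47.3 CPM in naive libraries A to D. S1pr2 was singled out after its values were seen and did not overlap (log2 fold change 0.97, SE 0.19, adjusted p = 0.0141). Bach2, a repressor of plasma cell fate singled out likewise, had a log2 fold change of 0.52. S100a6, a calcium-binding protein, was at 61.1, 70.0 and 10.7 CPM in fixed ndLN libraries A, B and C and 175, 208, 156 and 174 CPM in naive libraries A to D. It was lower in all 3 fixed ndLN libraries (log2 fold change -1.75, SE 0.38, adjusted p = 0.027).

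The makeup of B cells moved with these genes. Cluster 10, led by Ms4a1, Mybl1 and Cd79a, held 32.3% to 50% of B cells in the fixed ndLN and 21.6% to 26.4% in naive nodes. Within that cluster Mybl1 was higher by 0.96 log2 units (adjusted p = 0.0212) and Gcsam by 1.07 (adjusted p = 0.0676). Leaving libraries out ended B cell calls (adjusted p in parentheses) without fixed ndLN library A for Gcsam (0.33), S1pr2 (0.103), Bach2 (0.143) and S100a6 (0.143), B for Bach2 (0.142) and S100a6 (0.0785), C for S100a6 (0.0909), without naive library A for Bach2 (0.0639) and S100a6 (0.055), B for Bach2 (0.106) and S100a6 (0.0643), C for Gcsam (0.0517) and D for Gcsam (0.0522), Bach2 (0.0717) and S100a6 (0.0526). Other settings ended them with the code series as a term for Mybl1 (0.0709), Gcsam (0.266), S1pr2 (0.212), Bach2 (0.304) and S100a6 (0.259), with naive A as the only control for Mybl1 (0.365), Gcsam (0.584), S1pr2 (0.451), Bach2 (0.578) and S100a6 (0.365) and with log-normalized clustering for Gcsam (0.0758), Bach2 (0.134) and S100a6 (log2 fold change -0.70, adjusted p = 0.354). With at most 50 cells per library B cells had 1 gene called.

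The values of the T cell class are those of a cluster that is also high in natural killer cell markers. There Ccl5, a chemokine of effector T cells, stood at 268, 309.6 and 205 CPM in fixed ndLN libraries A, B and C and 774, 718, 459 and 670.4 CPM in naive libraries A to D. Its fixed ndLN values were under the naive range (log2 fold change -1.31, SE 0.19, adjusted p = 0.000157). Klf2, which keeps resting T cells in circulation, was at 105, 63.3 and 152 CPM in fixed ndLN libraries A, B and C and 237, 164, 223 and 225 CPM in naive libraries A to D. Klf2 was singled out after its values were seen and did not overlap (log2 fold change -1.03, SE 0.22, adjusted p = 0.0211). Hells, a chromatin remodeler of dividing cells, was at 81.4, 91.5 and 80.3 CPM in fixed ndLN libraries A, B and C and 29, 32.8, 26.5 and 24.7 CPM in naive libraries A to D. It was higher in each fixed ndLN library (log2 fold change 1.57, SE 0.35, adjusted p = 0.0375). Genes of other cells were lower in the T cell droplets: Lyz2, lysozyme of myeloid cells, was at 618, 134 and 187 CPM in fixed ndLN libraries A, B and C and 1944, 1571, 1716 and 1524 CPM in naive libraries A to D. The 5 macrophage and monocyte markers, all detected, summed to 183 to 679 CPM in T cells of the fixed ndLN and 1580 to 1970 CPM in naive nodes. Pla2g2d and Dnase1l3, enzymes of myeloid cells, had log2 fold changes of -2.57 and -2.99. Leaving libraries out ended T cell calls (adjusted p in parentheses) without fixed ndLN library A for Klf2 (0.157), Hells (0.176), Pla2g2d (0.132) and Dnase1l3 (0.084), B for Klf2 (0.291), Hells (0.207) and Dnase1l3 (0.145), C for Hells (0.0972), without naive library A for Klf2 (0.0633) and Hells (0.0633), C for Hells (0.0686) and D for Klf2 (0.0596) and Hells (0.0802). Other settings ended them with the code series as a term for Hells (0.24), with naive A as the only control for Hells (0.289), with log-normalized clustering for Klf2 (0.0541) and Hells (0.161) and with at most 10% mitochondrial UMIs for Ccl5 (0.371) and Hells (0.121). The part of this myeloid RNA in the T cell results was not tested.

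Ccr7-led dendritic cells had 214 genes higher (2.15%) and 393 lower (3.95%). Mir155hg, the host transcript of miR-155, which activated immune cells make, stood at 204, 285 and 197 CPM in fixed ndLN libraries A, B and C and 102, 111, 86.3 and 81.1 CPM in naive libraries A to D. Mir155hg was singled out after its values were seen, and its groups were apart (log2 fold change 1.24, SE 0.14, adjusted p = 1.39e-06). Mir142hg, the host transcript of a miRNA of blood cells, was at 231, 205 and 189 CPM in fixed ndLN libraries A, B and C and 87.8, 92.8, 77.3 and 79.9 CPM in naive libraries A to D. Here too every fixed ndLN value was higher (log2 fold change 1.32, SE 0.13, adjusted p = 1.75e-07). Clec12a, an inhibitory lectin that binds uric acid crystals, was at 43.1, 107 and 58.2 CPM in fixed ndLN libraries A, B and C and 27.2, 25, 17.5 and 20.8 CPM in naive libraries A to D. It was higher without overlap (log2 fold change 1.49, SE 0.25, adjusted p = 0.000319), but not called with at most 10% mitochondrial UMIs. Malat1, a nuclear RNA, had a log2 fold change of 0.45, and -0.13 under that same limit. Heat shock genes were lower in 11 of 17 (3.95% of all genes were called lower).

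Dcn was lower in droplets of cells that are not fibroblastic. In Ccr7-led dendritic cells it stood at 15.9, 11.5 and 5.55 CPM in fixed ndLN libraries A, B and C and 66.0, 70.3, 153 and 62.3 CPM in naive libraries A to D. In B cells it was at 38.2, 19.5 and 10.7 CPM in fixed ndLN libraries A, B and C and 125, 93.3, 118 and 118 CPM in naive libraries A to D. Both classes were lower in every fixed ndLN library (log2 fold changes -2.84 and -2.04). The 5 fibroblastic markers summed to 5.37 to 22.5 CPM in Ccr7-led dendritic cells of the fixed ndLN against 43.3 to 101 CPM in naive nodes, and to 11 to 37.1 against 68.8 to 131 CPM in B cells. In B cells the call of Dcn was lost (adjusted p in parentheses) without fixed ndLN library B (0.0785), with the code series as a term (0.115), with naive A as the only control (0.114), with log-normalized clustering (log2 fold change -1.26, adjusted p = 0.212) and with at most 10% mitochondrial UMIs (0.0503). In fLECs the sums were 5.73 to 8.8 against 15.2 to 23.7 CPM and in cLECs 12.3 to 19.1 against 19.2 to 32.6 CPM. Free fibroblastic RNA moved with Dcn in these classes, and its part was not tested.

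Matrix, contractile and signalling lists gave scattered calls, and the genes of this paragraph were taken from the lists after their values were seen. P4ha1, a prolyl hydroxylase that collagen needs to fold, stood in cLECs at 36.0, 37.0 and 44.5 CPM in fixed ndLN libraries A, B and C and 89.9, 88.0, 84.1 and 93.7 CPM in naive libraries A to D. Every fixed ndLN value of P4ha1 was lower (log2 fold change -1.21, SE 0.13, adjusted p = 2.14e-07), and its log2 fold change was -1.36 in fLECs and -1.31 in MedLECs. Col4a1, a basement membrane collagen, was in cLECs at 601, 647 and 587 CPM in fixed ndLN libraries A, B and C and 455, 457, 474 and 443 CPM in naive libraries A to D. The Col4a1 libraries did not overlap (log2 fold change 0.42, SE 0.06, adjusted p = 4.42e-05), and the log2 fold changes of Col4a2, its partner chain, Hspg2, which encodes perlecan, and Bgn, the proteoglycan biglycan, were 0.30, 0.25 and 0.35. In MedRCs 5 of 24 measured members of the actin and motility list were lower (0.378% of all genes were), Acta2 among them, and 0 higher, with Tpm2, a tropomyosin, at 118, 127 and 163 CPM in fixed ndLN libraries A, B and C and 208, 234, 282 and 212 CPM in naive libraries A to D. No fixed ndLN library reached the naive range for Tpm2 (log2 fold change -0.84, SE 0.17, adjusted p = 0.00508), and Myl9, a myosin light chain, Actb and Tmsb4x, which binds free actin, had log2 fold changes of -0.75, -0.48 and -0.47. Calls of these genes were lost (adjusted p in parentheses) without fixed ndLN library A for Tpm2 (0.12), Myl9 (0.194) and Tmsb4x (0.119), B for Tpm2 (0.0615), Actb (0.115) and Tmsb4x (0.199), C for Myl9 (0.0775) and Actb (0.137), without naive library C for Tmsb4x (0.0925) and D for Tmsb4x (0.065), and in cLECs without fixed ndLN library A for Col4a2 (0.192) and Hspg2 (0.157), B for Col4a2 (0.136), C for Hspg2 (0.119), without naive library A for Col4a2 (0.0711), B for Hspg2 (0.0766), C for Col4a2 (0.0593) and Hspg2 (0.0503) and D for Col4a2 (0.0785). Over the 10 classes, where 0.383% of all gene and class pairs were called higher and 0.436% lower, the actin and motility list gave 3 pairs higher and 11 lower of 217, matrix glycoproteins 3 and 11 of 188, collagens 3 and 1 of 101, complement and acute phase genes 0 and 6 of 130 and genes of NF-κB feedback 3 and 0 of 157. C3, the central complement component, had a log2 fold change of -0.83 in cLECs, and Nfkbia, the inhibitor that NF-κB induces, one of 0.42 in fLECs. Of the cLEC genes, calls were lost with the code series as a term for Col4a2 (0.173), Hspg2 (0.172), Bgn (0.151) and C3 (0.0704), with naive A as the only control for Col4a2 (0.248), Hspg2 (0.379), Bgn (0.168) and C3 (0.108), with log-normalized clustering for Hspg2 (0.0666) and with at most 10% mitochondrial UMIs for Col4a2 (0.0504) and Hspg2 (0.0606). In MedRCs they were lost with the code series as a term for Tpm2 (0.118), Myl9 (0.141) and Tmsb4x (0.238), with naive A as the only control for Tpm2 (0.193), Myl9 (0.325), Actb (0.193) and Tmsb4x (0.322) and with log-normalized clustering for Myl9 (0.0627) and Tmsb4x (0.0529), and that of P4ha1 in MedLECs with the code series as a term (0.0617), with naive A as the only control (0.304) and with log-normalized clustering (0.0712).

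In other lists few members passed the test. Over the 10 classes, 0 of 156 measured gene and class pairs of the circadian clock passed edgeR's adjusted p (15 had an unadjusted p under 0.05), 0 of 59 of MHC class II (10) and 0 of 159 of MHC class I presentation (24). Of the type I interferon list 1 pair was higher and 2 lower of 215. In fLECs all 28 measured interferon genes had a negative log2 fold change, with a median of -0.39 and 1 called, and in PRCs 17 of 19 were negative (median -0.77, 1 called). The nuclear genes of oxidative phosphorylation gave 2 higher of 400, the cell cycle list 1 lower of 120 and the matrix protease list 1 higher of 118.

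The distant node of mice with live tumors offers a second comparison. The direct contrast of the ndLN of both inocula does not have the naive libraries as its reference. The naive libraries still entered the shared fit, and so its estimate of the spread. It called 328 of the genes in cLECs (2.77%, 67 higher and 261 lower in the fixed ndLN), 81 in fLECs (0.701%), 90 in MedRCs (0.809%), 26 in TRCs (0.215%), 18 in MRCs (0.16%), 21 in PRCs (0.267%), 24 in MedLECs (0.244%), 7 in CorLECs (0.0877%), 6 in B cells (0.0664%) and 8 in T cells (0.105%). The fixed ndLN libraries and the live ndLN libraries carry different code series, so code series and inoculum cannot be told apart in this contrast.

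Heat shock genes were lower in the fixed than in the live ndLN for 14 of 18 in cLECs, 13 of 18 in fLECs and 10 of 17 in MedLECs. Of all genes tested, 261 of 11820, 68 of 11558 and 18 of 9819 were lower in these classes. Hspa1a in cLECs differed by -3.21 log2 units (adjusted p = 7.61e-11). Against naive, the live ndLN gave Hspa1a a log2 fold change of -0.72 in cLECs, from the same naive libraries. Immediate early genes were lower in 21 of 24 in cLECs and 15 of 23 in fLECs. Fosb in cLECs, which did not pass against naive (log2 fold change -0.01, SE 0.11, adjusted p = 0.987), differed from the live ndLN by -1.10 log2 units (adjusted p = 7.04e-08). There the live ndLN stood above naive by 1.09 log2 units. Erdr1 was higher than in the live ndLN by 1.55 log2 units (adjusted p = 3.32e-06) in MRCs.

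Cxcl12 in MRCs differed from the live ndLN by -1.01 log2 units (adjusted p = 0.00135) and Madcam1 by 0.68 log2 units (adjusted p = 0.0266). Mybl1 in B cells differed from it by 0.41 log2 units (adjusted p = 0.513), which did not pass. A p that misses the threshold does not show that the 2 distant nodes were alike for this gene.

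In the dLN of the same fixed-cell mice, measured against the same naive libraries, values are given side by side. The log2 fold change of Hspa1a in cLECs was -2.0 in the dLN and -3.94 in the ndLN, and that of Hspb1 in fLECs -1.78 and -2.92. Erdr1 in TRCs stood at 1.00 and 1.17 and Madcam1 in MRCs at 1.11 and 1.51. Dcn in MRCs stood at -0.54 and -1.23. Mybl1 in B cells stood at 0.46 and 1.16.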

How the data were processed

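The authors deposited raw UMI counts by gene and barcode for 16 libraries, without normalization, from Cell Ranger 3.0.1 on mm10. Clustering used those of the 48440 genes that were seen in at least 5 cells. SCTransform and Seurat 5.3.0 (R 4.3.3) normalized and clustered the cells (2000 variable genes, 20 principal components, Louvain resolution 0.8, seed 1448145), and fibroblastic cells and LECs were then clustered again. A cluster was named from marker genes only, and stayed unnamed where markers or depth did not allow a name. Scrublet, run through scanpy 1.11.5 with an expected rate of 0.06, scored doublets, which were marked by rank at 0.8% per 1000 cells.

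Per class, the UMIs of each library with 10 or more cells were summed. The library was the replicate. The sums were tested with edgeR 4.0.16 (TMM, filterByExpr, quasi-likelihood fit over all 16 libraries, contrast fixed ndLN minus naive), with Benjamini-Hochberg adjustment over all genes tested and calls at an adjusted p under 0.05. A fold change of 1 class was set against that of another in 1 fit with the library as a block. For shares, edgeR was run on cell numbers, beside an exact two-sided permutation test. The fit was tested on simulated data. CPM values are scaled by TMM library sizes.

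The members and the gene lists were chosen with earlier results of these data known. Named genes are, per class, the 4 called genes that rose most and the 4 that fell most, given a mean log2 CPM of 5 or more and groups that did not overlap, then genes called in 1 direction in at least 4 classes, and for each list up to 4 members by smallest p. Genes outside this rule are said to have been singled out after their values were seen. As alternatives, calls needed a natural log fold change of 0.25 as well, or the fit was changed to DESeq2 1.42.0, limma 3.58.1 on shares, no filter on low counts, a replicate block, only the 7 libraries, the code series as a term, naive A as the only control, other clustering, at most 10% mitochondrial UMIs, doublets left out, at most 50 cells per library and class, the main cluster of a class alone and each library left out. The main cluster alone, the removal of heat shock, mitochondrial and ribosomal RNA genes before normalization, the Ccr7-led dendritic class, the sums over whole lineages and the differences between classes were added after the data were seen. Results for a few genes are not reported here.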

Additional observations from a re-analysis of the deposited data

Results flagged for a closer look

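In the groups named here, of 192 groups of 4 naive libraries checked, 1 library lay apart from the other 3 by Dixon's limit of 0.829, and chance gives such a mark in about 1 of 20 groups. Naive A was high for Hspb1 in fLECs (424.5 CPM against 357.1 to 363.9), for the share of blood endothelial cells (4.66% against 1.51% to 1.79%) and for kept cells (4806 against 3177 to 3356). Naive C was low for Erdr1 in fLECs (32.46 CPM against 49.34 to 52.31) and for Ier3 in TRCs (34.23 against 39.35 to 40.39), and high for Hspa1a in TRCs (251.7 against 173.8 to 178.2) and Dcn in Ccr7-led dendritic cells (152.9 against 62.3 to 70.31). Naive D was low for Dnajb1 in fLECs (192.6 CPM against 298.7 to 316.2) and high for Fosb in MRCs (31.03 against 20.56 to 21.81).

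A direct test of the difference of 2 fold changes marked 36 genes between cLECs and CorLECs, 74 between cLECs and TRCs, 51 between cLECs and MRCs, 11 between fLECs and cLECs, 18 between MRCs and TRCs and 22 between MedRCs and TRCs. Against TRCs, the change in cLECs differed by -3.31 log2 units for Hspa1a, -2.02 for Hspb1, -1.58 for Hspa1b, -1.26 for Hsp90aa1, -1.04 for Hspe1, -0.98 for Bag3, -0.94 for Hspd1 and -0.34 for Hspa8. It also differed from TRCs by -0.95 for Egr1, -0.9 for Fos, -1.13 for P4ha1, -0.99 for mt-Nd4, -0.8 for C3, 0.45 for Col4a2, 0.47 for Col4a1 and 0.5 for Rn7sk. Against MRCs, the change in cLECs differed by -3.32 log2 units for Hspa1a, -2.4 for Hspa1b, -2.19 for Hspb1, -1.2 for Hsp90aa1, -1.02 for Hspd1 and -0.94 for Hspe1. Among other genes it differed from MRCs by -1.5 for Fosb, -1.48 for Egr1, -1.24 for Fos, -1.08 for Jun, -0.93 for mt-Nd4, 0.84 for Dcn and 0.59 for Rn7sk.

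Against CorLECs, the change in cLECs differed by -3.48 log2 units for Fosb, -3.27 for Hspa1a, -2.35 for Egr1, -2.16 for Fos, -2.14 for Hspa1b, -1.87 for Dnajb1, -1.6 for Hspb1, -1.13 for Jun, -1.06 for Klf2, -0.95 for Hsp90aa1, -0.95 for C3, -0.76 for mt-Nd4 and 0.88 for Col4a1. Between fLECs and cLECs the change of Klf2 differed by -1.56. Between MedRCs and TRCs it differed by 1.65 for Cyr61, 0.98 for Cyp26b1 and 0.42 for mt-Nd4. Between MRCs and TRCs it differed by -2.57 for Lum, -2.25 for Dpt, -1.86 for Serpina3n and -1 for Dcn. Among barcodes that no comparison of expression used, those removed for mitochondrial UMIs were 31.2%, 29.6% and 31.3% of fixed ndLN libraries A, B and C, above the 14.3% to 18.6% of the naive libraries.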

How the results depend on the processing

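Of 165 named gene and class pairs, 157 were called, and over 2920 alternative values 2507 kept direction and call, 407 kept direction without the call and 6 turned. Counts of calls in the order TRC, MedRC, MRC, PRC, cLEC, fLEC, MedLEC, CorLEC, B cell, T cell and Ccr7-led dendritic cell moved by over 1.5 times in these cases. With no filter on low counts they were 197, 224, 127 and 134 for TRC to PRC, and 248, 103, 59, 175 and 119 for fLEC to T cells. With DESeq2 they were 120 in MRCs, 46 in PRCs, 30 in CorLECs and 105 in B cells. With the code series as a term they were 37, 56, 19, 9, 70 and 71 for TRC to fLEC and 8 in B cells. With naive A as the only control they were 36, 31, 14, 1, 81, 74 and 18 for TRC to MedLEC, 11 in B cells and 226 in Ccr7-led dendritic cells. Only the 7 libraries gave 100 in MRCs, 55 in MedLECs and 35 in CorLECs. Log-normalized clustering gave 53 in MedRCs, 35 in MRCs, 35 in PRCs, 37 in CorLECs, 71 in B cells, 47 in T cells and 9 shares. At most 10% mitochondrial UMIs gave 31 in MRCs, 281 in fLECs and 51 in Ccr7-led dendritic cells. At most 50 cells per library gave 22, 66, 18, 9, 86 and 43 for TRC to fLEC, 25 in CorLECs, 1 in B cells and 6 in Ccr7-led dendritic cells. The main cluster alone gave 49, 37 and 39 for TRC to MRC, 47 in cLECs, 65 in fLECs, 47 in MedLECs, 132 in B cells and 237 in Ccr7-led dendritic cells. Without heat shock, mitochondrial and ribosomal RNA genes 8 were called in MedLECs, 22 in B cells and 13 in T cells, a setting in which those genes could not be called. The cause of the other moves was not tested.

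Leaving out 1 library in turn gave 30 to 99 calls in TRCs, 49 to 109 in MedRCs, 9 to 52 in MRCs, 10 to 42 in PRCs, 120 to 259 in cLECs, 86 to 148 in fLECs, 20 to 33 in MedLECs, 14 to 23 in CorLECs, 21 to 54 in B cells, 19 to 28 in T cells, 295 to 604 in Ccr7-led dendritic cells and 11 to 15 shares. Log-normalized clustering turned the share of follicular dendritic cells to -1.17 (log2 ratio), Ly6a in TRCs to 0.005, and Serpina3n, Fos and Ccl19 in MRCs to 0.12, -0.43 and 0.64 (log2). A limit of 10% mitochondrial UMIs turned Tnc in MedRCs to 0.48 and Malat1 in Ccr7-led dendritic cells to -0.13.

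Deviations of fixed ndLN and naive libraries with the same letter correlated at -0.053 to 0.048. These libraries come from different mice, so the values cannot show whether letters pair the ndLN and dLN of the same mice. That pairing was not tested, and the main fit treated the 16 libraries as independent. A replicate block on the letters gave 80, 104, 51, 13, 225, 145, 27, 23, 26, 24 and 564 calls in the order above, of which CorLECs (23) and B cells (26) moved by over 1.5 times. For fixed against live ndLN the replicate block gave 651 calls over 10 classes against 609 without it, 13 in CorLECs and 14 in T cells. With the block 12 of the 157 calls were lost, among them Egr1, Fos and Junb in MRCs (adjusted p = 0.0696, 0.0703 and 0.0752) and Ifi27l2a in PRCs (0.0565), and the share of blood endothelial cells was called (adjusted p = 0.0439).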
